A study of Mus musculus with 16 samples.

Results

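The genes of the VEGF family that the count matrix names were followed through the cell types of the mouse lung: the ligands Vegfa, Vegfb, Vegfc and Pgf, the receptors Flt1, Kdr and Flt4, and the co-receptors Nrp1 and Nrp2. They were chosen by name, and all 9 were found among the 38003 genes of the matrix. The data are single-cell RNA counts of 80449 lung cells in 15 samples, which the submitters assigned to 22 cell types. The cells were sorted as live after enzymatic digestion and barcoded in rounds of splitting and pooling with the Evercode WT v3 kit of Parse.

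The 6 groups were mice given 6-OHDA and seeded with pancreatic ductal adenocarcinoma (PDAC) cells (6-OHDA-PDAC, 2 samples), 6-OHDA alone (3 samples), BIBO3304 with PDAC cells (BIBO3304-PDAC, 2 samples), BIBO3304 alone (3 samples), vehicle with PDAC cells (vehicle-PDAC, 2 samples) and vehicle alone (3 samples). 6-OHDA is a toxin that destroys sympathetic nerve endings, and BIBO3304 blocks the neuropeptide Y receptor NPY1R. Strain, age, sex, dose, time after seeding and the PDAC line are not stated in the labels or tables used here. Nothing says that the numbered samples are separate mice, so a p-value measures only the spread between these samples. Depth ran from 10003796 to 32580698 transcripts a sample. Median transcripts per cell were 2631 to 4846.5 in BIBO3304 samples and 2417 and 1623 in BIBO3304-PDAC samples, without overlap. They were 1640 to 1906 in vehicle samples and 2078 to 3411 in the other samples. No barcode of the first round of splitting was shared between samples. Seeding was read from a mark in the deposited cell table, which 308 of the 312 annotated cancer cells carry. Sample vehicle-PDAC 2 carries that mark but held 0 cancer cells, so the tests named below that use it are also given without it.

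VEGF-A binds the tyrosine kinase receptors encoded by Flt1 (VEGFR1) and Kdr (VEGFR2), and signalling through Kdr drives the growth, survival and permeability of blood vessel endothelium, while Flt1 binds the ligand tightly and signals weakly. VEGF-B and placental growth factor (Pgf) bind Flt1, and VEGF-C acts on Flt4 (VEGFR3), the main receptor of lymphatic vessels. The neuropilins Nrp1 and Nrp2 bind both VEGF ligands and class 3 semaphorins. In the lung, alveolar type 1 cells are a known source of VEGF-A for the Kdr-rich capillary cells, called aerocytes, that lie against them.

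The stretches upstream of 4 members are shown because the results below turn on them. Vegfa and Nrp2 changed in opposite directions in the same macrophages, and Kdr and Flt4 were the pair of members most alike across cell types. Each is the 250 bases before the gene's start, 5′ to 3′ on the gene's strand, from RefSeq on GRCm38.p6, an older build than the mm39 of the submitters' processing notes. Vegfa lies on the minus strand at chr17:46032378-46032627 (its most upstream start of 2), Nrp2 on the plus strand at chr1:62703067-62703316, Kdr on the minus strand at chr5:75978456-75978705 and Flt4 on the plus strand at chr11:49609429-49609678. Capitals mark every match of the letters searched, on either strand.
Vegfa: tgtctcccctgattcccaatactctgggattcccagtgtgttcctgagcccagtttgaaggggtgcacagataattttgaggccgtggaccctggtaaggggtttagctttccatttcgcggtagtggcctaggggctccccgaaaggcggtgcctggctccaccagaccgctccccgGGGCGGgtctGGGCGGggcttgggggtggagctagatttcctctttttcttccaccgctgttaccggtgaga
Nrp2: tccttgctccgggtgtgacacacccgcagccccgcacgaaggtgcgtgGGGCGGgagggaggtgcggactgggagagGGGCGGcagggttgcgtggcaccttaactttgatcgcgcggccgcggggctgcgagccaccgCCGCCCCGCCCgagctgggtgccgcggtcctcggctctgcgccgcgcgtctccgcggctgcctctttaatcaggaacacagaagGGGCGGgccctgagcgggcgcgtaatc
Kdr: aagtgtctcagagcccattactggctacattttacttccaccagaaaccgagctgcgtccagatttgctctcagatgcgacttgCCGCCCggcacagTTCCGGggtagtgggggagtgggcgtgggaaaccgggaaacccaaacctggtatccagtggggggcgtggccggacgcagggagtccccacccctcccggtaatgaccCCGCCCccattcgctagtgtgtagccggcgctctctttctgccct
Flt4: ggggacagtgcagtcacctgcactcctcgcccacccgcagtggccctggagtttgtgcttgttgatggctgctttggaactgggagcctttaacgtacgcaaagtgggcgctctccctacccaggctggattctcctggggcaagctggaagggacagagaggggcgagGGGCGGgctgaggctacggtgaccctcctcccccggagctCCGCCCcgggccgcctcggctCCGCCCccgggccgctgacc

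The letters searched were ACGTG (the core of the hypoxia response element), CACGTG (an E-box, which contains that core), TGANTCA (AP-1), CCGGAA (ETS) and GGGCGG (the GC box bound by Sp1). GGGCGG was matched 2 times before Vegfa, 5 times before Nrp2, 2 times before Kdr and 3 times before Flt4, and 32.7% of the 32851 promoters of the same length held it. All 9 members had it at 1 start or more. CCGGAA was matched 1 time, before Kdr, against 12% of all promoters with a match. The other 3 had no match in these 4 windows, against 16.6% (ACGTG), 6.02% (CACGTG) and 6.75% (TGANTCA) of all promoters, while the other start of Vegfa held ACGTG. A match describes letters, not binding.

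Levels are transcripts per 1000000 transcripts (CPM) of a cell type in a sample, over samples with at least 20 cells of the type. They are not corrected for gene length, so a gene is compared between cell types and not with another gene. The submitters named the types from the same cells, so these levels are a description without a test. The submitters' names fit their markers, since each of 23 marker lists was highest in the type it names.

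**Figure D1:**
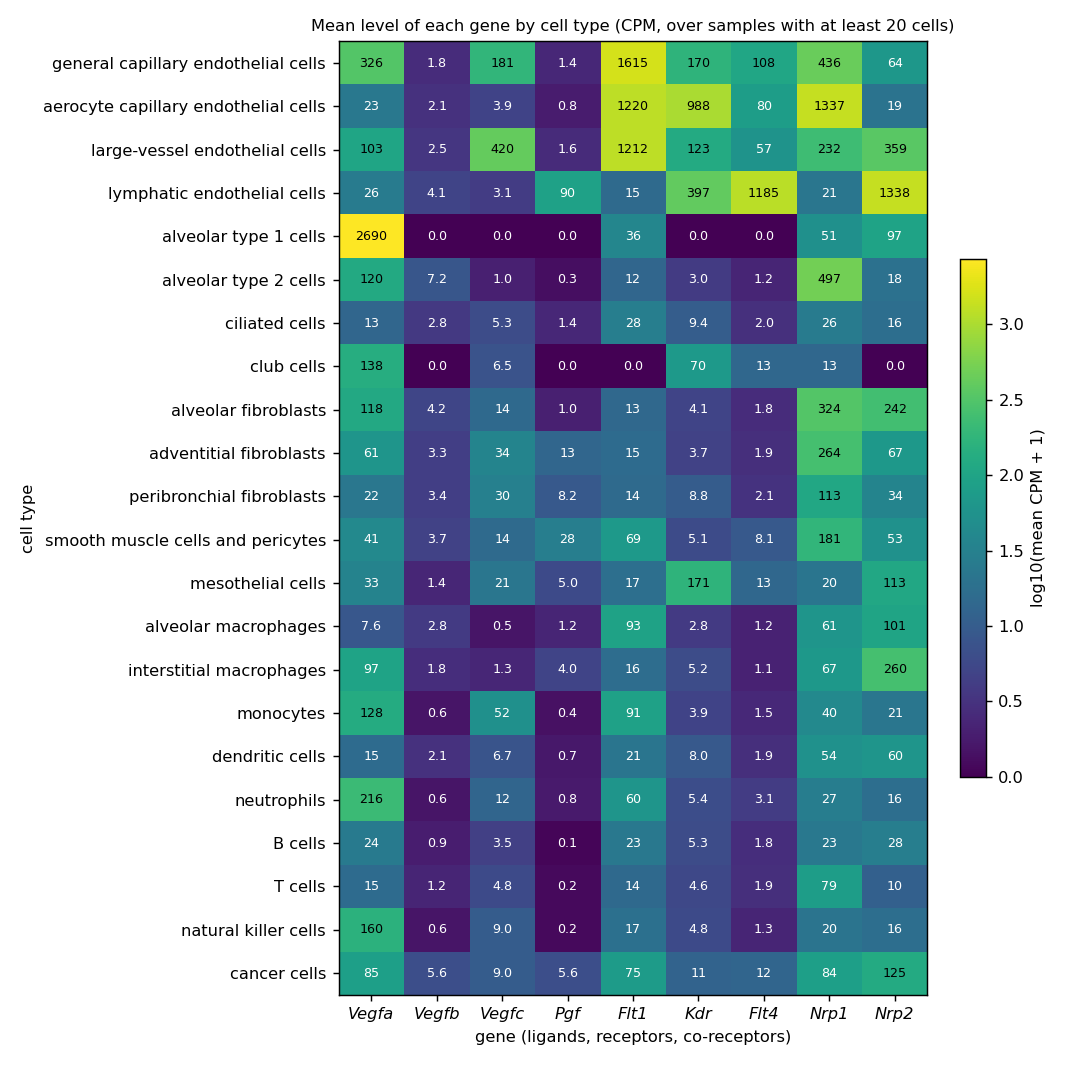
Mean level in CPM of each of the 9 genes (columns) in each of the 22 cell types (rows), with colour on a log10 scale. Vegfa peaks in alveolar type 1 cells at 2690 CPM, Kdr and Nrp1 peak in aerocytes at 988 and 1337 CPM, and Flt4, Nrp2 and Pgf peak in lymphatic endothelium at 1185, 1338 and 90.1 CPM.

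Vegfa, the main angiogenic ligand, had its highest level in alveolar type 1 cells, the flat cells of the gas exchange surface. It reached 2690 ± 345 CPM there (SD, n = 2 samples with 20 cells or more). The type held 191 cells in all, and with no minimum of cells, a choice made after seeing the data, the level was 2424 ± 552 CPM (n = 15), from 1185 to 3099 CPM. At least 1 Vegfa transcript was found in 184 of these 191 cells (96.3%, median 1923 transcripts per cell), against 2.46% of 3084 T cells (median 1614.5), which gives the level of background. General capillary endothelial cells came next at 326 ± 52.0 CPM (n = 15) and lay above neutrophils, at 216 ± 121 CPM, in 13 of 15 samples. Neutrophils, natural killer cells (160 CPM), club cells (138 CPM, n = 2) and monocytes (128 CPM) followed, and neighbours in this stretch of the order did not differ beyond their spread. Alveolar macrophages, the resident macrophages of the air space, had the lowest level, 7.64 CPM.

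By share the order was another, and alveolar type 1 cells held 1195 of the 22562 Vegfa transcripts. Alveolar fibroblasts held 29.2% of all Vegfa transcripts (13.6 to 41.6% a sample) and general capillary cells 24.3% (15.5 to 33.1%), and alveolar type 2 cells held 9.45%. Such shares follow the cells that the digestion and sort yielded.

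Vegfc, the lymphatic growth factor, was highest in large-vessel endothelial cells at 420 ± 166 CPM (n = 15), above general capillary cells at 181 ± 55.2 CPM in 15 of 15 samples. General capillary cells lay above monocytes (51.8 ± 41.3 CPM) in 15 of 15 samples too. Monocytes and adventitial fibroblasts (34.3 CPM) did not differ beyond their spread, with monocytes higher in 8 of 15 samples. Endothelial types together held 69.9% of Vegfc transcripts, while lymphatic endothelium, the target tissue of this ligand, showed a Vegfc transcript in 3 of 577 cells, or 0.52% (median 1386 transcripts), below the 0.876% of T cells.

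Pgf, a ligand of Flt1 alone among the tyrosine kinase receptors, was highest in lymphatic endothelial cells at 90.1 ± 46.5 CPM (n = 14), above smooth muscle cells and pericytes (27.9 CPM) in 13 of 14 samples. Adventitial fibroblasts, the sheath cells of vessels and airways, followed at 12.5 CPM and lay below smooth muscle cells and pericytes in 10 of 15 samples. Vegfb, the other ligand of Flt1, gave 817 transcripts in all and was found in 0.956% of cells. Its highest levels, 7.21 ± 3.14 CPM in alveolar type 2 cells (n = 15), 5.62 CPM in cancer cells (n = 5) and 4.21 CPM in alveolar fibroblasts, did not differ beyond their spread.

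**Figure D2:**
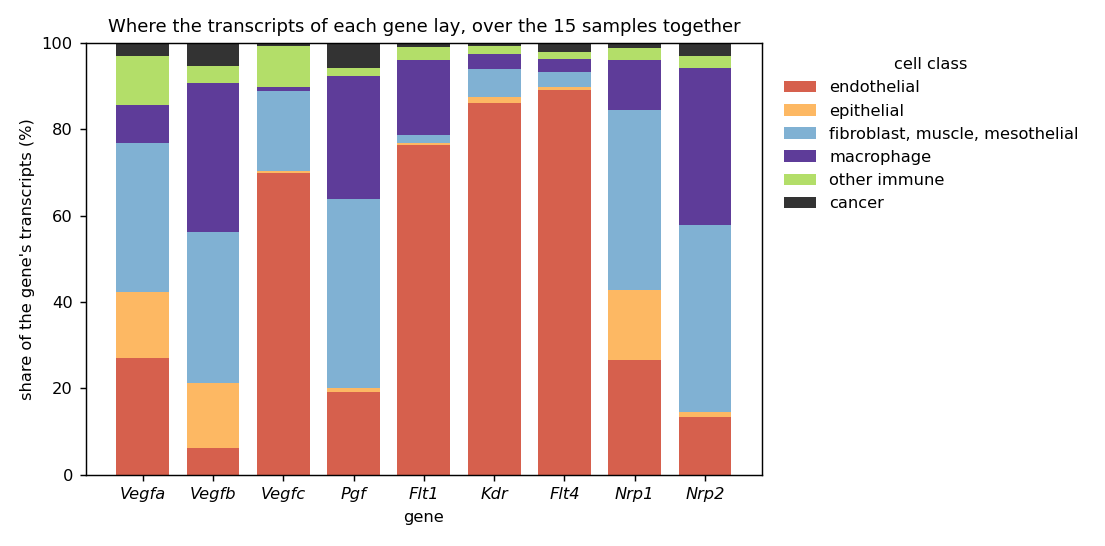
Share in percent of each gene's transcripts that lay in each class of cells, over the 15 samples together. Endothelial cells hold 89.1% of Flt4, 86.2% of Kdr and 76.2% of Flt1 transcripts, but 26.6% of Nrp1 and 13.3% of Nrp2.

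The receptors divided the endothelium among its types. Flt1 was highest in general capillary cells at 1615 ± 321 CPM, above aerocytes at 1220 ± 219 CPM in 15 of 15 samples. Aerocytes and large-vessel cells (1212 ± 169 CPM) did not differ beyond their spread, with aerocytes higher in 6 of 15 samples. Lymphatic endothelium was at 14.5 CPM (n = 14). Outside the endothelium, alveolar macrophages had 93.3 ± 15.9 CPM of Flt1 and held 17.0% of its transcripts. A Flt1 transcript was seen in 25.4% of 23624 alveolar macrophages (median 2932 transcripts per cell), against 77.6% of general capillary cells (median 1382.5) and 2.76% of T cells (median 1614.5).

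Kdr, the main signalling receptor, was highest in aerocytes at 988 ± 267 CPM (n = 15), above lymphatic endothelium at 397 ± 105 CPM in 14 of 14 samples. Mesothelial cells, the outer lining of the lung, had 171 ± 80.03 CPM (n = 14) and general capillary cells 170 ± 35.9 CPM, which is no difference beyond the spread. Large-vessel cells followed at 123 CPM. A Kdr transcript was seen in 68.7% of aerocytes (median 1602 transcripts per cell), against 0.811% of T cells. Flt4, the VEGF-C receptor, was highest in lymphatic endothelium at 1185 ± 251 CPM (n = 14), above general capillary cells in 14 of 14 samples. The blood endothelial types had less of it, 108 ± 16.5 CPM in general capillary cells, 79.6 CPM in aerocytes and 56.5 CPM in large-vessel cells, and no other type exceeded 13.1 CPM.

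The co-receptors reached beyond the endothelium. Nrp1 was highest in aerocytes at 1337 ± 310 CPM, above the next type in 15 of 15 samples. Alveolar type 2 cells, which make surfactant, had 497 ± 137 CPM and general capillary cells 436 ± 69.7 CPM, with alveolar type 2 cells higher in 9 of 15 samples, so these did not differ beyond their spread. Alveolar fibroblasts (324 CPM), adventitial fibroblasts (264.5 CPM) and large-vessel cells (232 CPM) followed. Nrp2 was highest in lymphatic endothelium at 1338 ± 365 CPM (n = 14; above the next type in 14 of 14 samples), with large-vessel cells at 359 ± 107 CPM. Interstitial macrophages, which live in the tissue between alveoli and around vessels, had 260 ± 170 CPM and alveolar fibroblasts 242 ± 46.0 CPM, with the macrophages higher in 5 of 15 samples. By share, fibroblast, muscle and mesothelial types held 43.4% of Nrp2 transcripts and macrophages 36.3%.

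**Figure D3:**
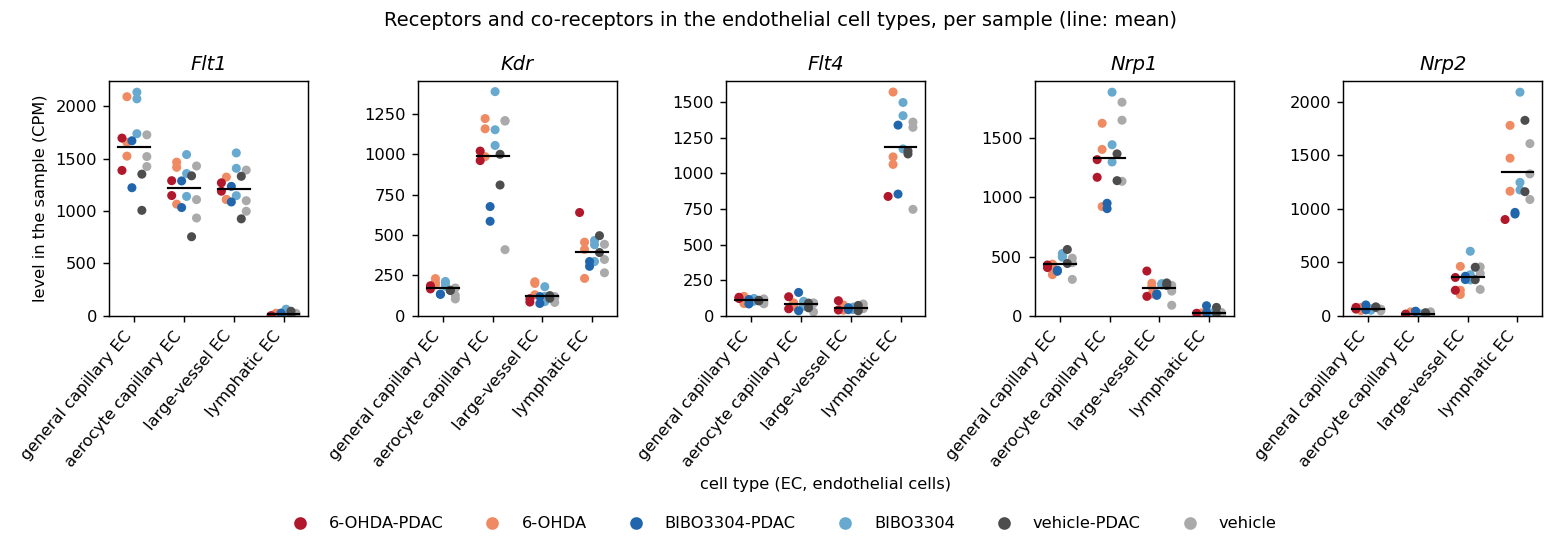
Level in CPM of the receptors and co-receptors in the 4 endothelial types, with 1 point per sample coloured by group and a line at the mean. Flt1 is highest in general capillary cells (mean 1615 CPM), Kdr and Nrp1 in aerocytes (988 and 1337 CPM), and Flt4 and Nrp2 in lymphatic endothelium (1185 and 1338 CPM).

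Likeness was measured as Pearson's r of log2(mean CPM + 1) across the 22 types, over 11264 genes, and is a description, since all types share the same libraries. Kdr was most like Slc16a13 (r = 0.930), Podxl (0.900), which encodes a sialomucin of the vessel lining, and Flt4 (0.893). Flt4 was most like Ushbp1 (0.940), N4bp3 and Wscd1 (both 0.904). Flt1 was most like BC028528 (0.875), Cyth3 (0.863) and Scarb1 (0.861), and Vegfc most like Nkd2 (0.779), Irf1 (0.769) and Heg1 (0.757). For Nrp1 the nearest was a gene the matrix names ENSMUSG00000121092 (0.947), followed by Scn7a (0.761), and for Nrp2 it was Itsn1 (0.755). Vegfa was nearest to Ndst1 (0.782) and Agrn (0.690), Pgf to Flnc (0.885), and Vegfb to Cul7 (0.865).

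The groups were compared within each cell type on counts summed per sample, with the quasi-likelihood test of edgeR and Benjamini-Hochberg adjustment over all genes of the type (a change is called at an adjusted p under 0.05). Of 162 pairs of a member and a type, 77 passed the filter on low counts in 18 types. Comparisons that use 6-OHDA-PDAC had 71 pairs in 16 types, since lymphatic endothelium and mesothelial cells each had 17 cells in 6-OHDA-PDAC 2 and were left out. A pair passes the filter where the gene is well counted. A type also needs 2 samples of at least 20 cells in each group compared. Alveolar type 1 cells, the type highest in Vegfa, held 2 to 30 cells a sample and were not tested in any comparison. Club cells and cancer cells were not tested either.

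Neither drug changed a member past the threshold in the types tested of unseeded lungs. For 6-OHDA against vehicle 0 of 77 member tests were called, beside 0.0669% of all tests of that comparison, with 11 at an unadjusted p under 0.05 and 0 called by DESeq2. For BIBO3304 against vehicle it was again 0 of 77, beside 0.307% of all tests, with 19 at an unadjusted p under 0.05 and 1 called by DESeq2, Vegfa in alveolar fibroblasts. Both comparisons use the same vehicle samples.

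Kdr in general capillary cells had the smallest adjusted p of the members under 6-OHDA. Its level was 190, 205 and 229 CPM after 6-OHDA and 212, 182 and 202 CPM after BIBO3304, against 171, 103 and 125 CPM after vehicle. Every drug-treated sample lay above every vehicle sample. The log2 fold changes of 0.55 ± 0.17 (SE; adjusted p = 0.333, edgeR) for 6-OHDA and 0.53 ± 0.16 (adjusted p = 0.245, edgeR) for BIBO3304 did not pass.

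Vegfa in alveolar fibroblasts was the member nearest the threshold under BIBO3304, at 126, 159 and 162 CPM in BIBO3304 samples, against 103, 92.5 and 121 CPM in vehicle samples. The groups did not overlap, with a log2 fold change of 0.58 ± 0.16 and an adjusted p of 0.0807 by edgeR, while DESeq2 gave 0.59 with an adjusted p of 0.0324. These fibroblasts held a median of 3382 to 6759 transcripts per cell in BIBO3304 samples, against 1519 to 1918 in vehicle samples, and the part of that depth in the result was not tested. Nrp2 in interstitial macrophages was at 495, 731 and 272 CPM in BIBO3304 samples, against 307, 179 and 281 CPM in vehicle samples, which overlap (log2 0.98 ± 0.29, adjusted p = 0.147, edgeR). Under 6-OHDA, Nrp1 was lower in alveolar fibroblasts by value, at 244, 212 and 184.5 CPM in 6-OHDA samples against 365, 243 and 299 CPM in vehicle samples, without passing (log2 -0.55 ± 0.15, adjusted p = 0.402, edgeR). Nrp1 in adventitial fibroblasts did not pass either (log2 -0.50 ± 0.17, adjusted p = 0.683, edgeR).

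With PDAC cells seeded, the drugs again gave no called member. For 6-OHDA-PDAC against vehicle-PDAC 0 of 71 tests were called by edgeR, beside 0.405% of all tests, with 5 at an unadjusted p under 0.05 and 0 by DESeq2. For BIBO3304-PDAC against vehicle-PDAC it was 0 of 77, beside 0.0317% of all tests, with 10 at an unadjusted p under 0.05 and 0 by DESeq2. Both use the same 2 vehicle-PDAC samples. Nrp2 in alveolar fibroblasts was at 189 and 224.5 CPM in 6-OHDA-PDAC samples and at 191 and 185 CPM in BIBO3304-PDAC samples, against 266 and 267 CPM in vehicle-PDAC samples. Neither drug group overlapped with vehicle-PDAC, at log2 -0.55 ± 0.18 (adjusted p = 0.252) and -0.59 ± 0.18 (adjusted p = 0.255, both edgeR). Without vehicle-PDAC 2 these were -0.43 (adjusted p = 0.635) and -0.49 (adjusted p = 0.339, both edgeR). Vegfc in general capillary cells was at 261 and 285 CPM in 6-OHDA-PDAC samples, against 200 and 90.5 CPM in vehicle-PDAC samples (log2 0.77 ± 0.24, adjusted p = 0.322, edgeR). The same comparison gave log2 0.45 (adjusted p = 0.94) without vehicle-PDAC 2 and log2 1.40 (adjusted p = 0.0417, both edgeR) without vehicle-PDAC 1, so that call hangs on which vehicle-PDAC sample is used. The other named tests of these comparisons, Nrp2 in interstitial macrophages for 6-OHDA-PDAC (log2 -1.07, adjusted p = 0.118), Nrp1 in general capillary cells for BIBO3304-PDAC (log2 -0.44, adjusted p = 0.455) and Flt1 in alveolar macrophages for BIBO3304-PDAC (log2 0.40, adjusted p = 0.607, all edgeR), did not pass. Without vehicle-PDAC 2 these were -0.94 (adjusted p = 0.433), -0.52 (adjusted p = 0.407) and 0.45 (adjusted p = 0.197, all edgeR).

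Seeding was compared with no seeding under each treatment. Under vehicle, 0 of 77 member tests were called by edgeR, beside 0.00176% of all tests, with 6 at an unadjusted p under 0.05 and 0 by DESeq2. Nrp2 in dendritic cells was among these 6 (log2 1.09 ± 0.37, or 1.38 without vehicle-PDAC 2) and did not pass the threshold. Under 6-OHDA there were 3 called of 71 (4.23%), 2 higher and 1 lower, beside 0.729% of all tests (0.246% higher and 0.484% lower). Under BIBO3304 there were 8 called of 77 (10.4%), 4 higher and 4 lower, beside 4.25% of all tests (2.44% higher and 1.82% lower). The share of genes called differed strongly between types, so each call below stands beside the share of its own type. The 2 or 3 samples on each side did not overlap in any of the 11 calls, but calls were picked by a small p, so this adds no support to them.

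**Figure D4:**
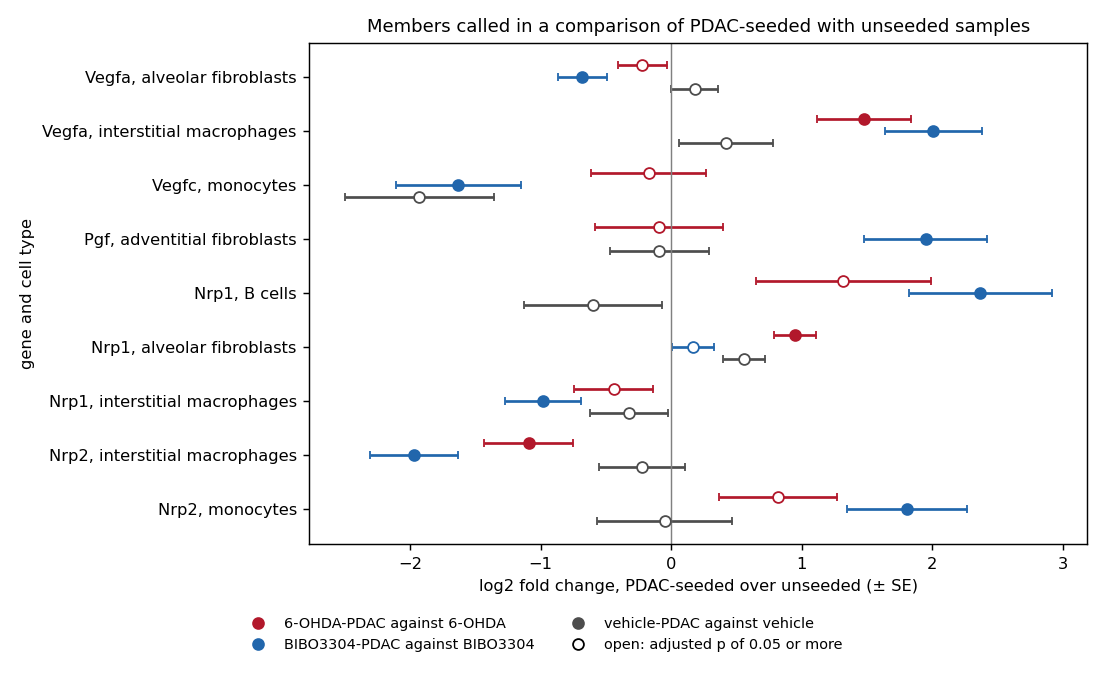
Log2 fold change ± SE of PDAC-seeded over unseeded samples for each gene and cell type called under 6-OHDA (red) or BIBO3304 (blue), with vehicle in grey, filled where the adjusted p is under 0.05. Vegfa in interstitial macrophages is higher under 6-OHDA (1.48) and BIBO3304 (2.01), and Nrp2 there is lower under both (-1.09 and -1.97).

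Vegfa rose in interstitial macrophages of seeded lungs under both drugs. Its level was 165 and 195 CPM in 6-OHDA-PDAC samples, against 65.2, 41.4 and 102 CPM in 6-OHDA samples. It was 173 and 171 CPM in BIBO3304-PDAC samples, against 30.7, 46.7 and 43.8 CPM in BIBO3304 samples. The log2 fold changes were 1.48 ± 0.36 (adjusted p = 0.0121) and 2.01 ± 0.37 (adjusted p = 0.00101, both edgeR), in a type where 9.22% and 18.0% of all genes tested were called. Under vehicle, vehicle-PDAC 1 was at 164 CPM and vehicle-PDAC 2, the sample with no annotated cancer cells, at 35.0 CPM, against 92.5, 63.0 and 65.5 CPM in vehicle samples. The vehicle comparison did not pass with both (log2 0.42 ± 0.36, adjusted p = 0.803, edgeR) or without vehicle-PDAC 2 (log2 0.97 ± 0.34, adjusted p = 0.229, edgeR). Against vehicle-PDAC, Vegfa did not pass for 6-OHDA-PDAC (log2 0.73, adjusted p = 0.354) or BIBO3304-PDAC (log2 0.80, adjusted p = 0.45). Those were 0.19 (adjusted p = 0.93) and 0.27 (adjusted p = 0.892) without vehicle-PDAC 2. Without vehicle-PDAC 1 both passed, at 1.70 (adjusted p = 0.00963) and 1.77 (adjusted p = 0.0234, all edgeR), so the call hangs on which of these 2 samples stands for vehicle-PDAC.

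Nrp2, the neuropilin for VEGF-C and for semaphorins of the Sema3F kind, fell in the same macrophages. It was at 89.0 and 143 CPM in 6-OHDA-PDAC samples, against 231, 146 and 377.5 CPM in 6-OHDA samples, and the gap between the nearest samples was small. BIBO3304-PDAC samples had 135 and 118 CPM, against 495, 731 and 272 CPM in BIBO3304 samples. The log2 fold changes were -1.09 ± 0.34 (adjusted p = 0.0466) and -1.97 ± 0.34 (adjusted p = 0.000616, both edgeR). Most genes called in this type with seeding were lower, 443 of 594 under 6-OHDA and 719 of 1158 under BIBO3304. Under vehicle the values were 227 and 163.5 CPM in vehicle-PDAC samples, against 307, 179 and 281 CPM in vehicle samples, which overlap. The call under 6-OHDA was lost in 9 of the 15 fits that left out 1 sample, and the call under BIBO3304 in 0 of 15.

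Nrp1 fell in these macrophages under BIBO3304, with 58.0 and 47.0 CPM in BIBO3304-PDAC samples, against 95.0, 119 and 87.7 CPM in BIBO3304 samples (log2 -0.98 ± 0.29, adjusted p = 0.024, edgeR). Under 6-OHDA it was at 43.5 and 49.4 CPM in 6-OHDA-PDAC samples, against 83.0, 61.1 and 38.7 CPM in 6-OHDA samples, which overlap. The call under BIBO3304 was lost without BIBO3304 2 and without BIBO3304-PDAC 2.

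**Figure D5:**
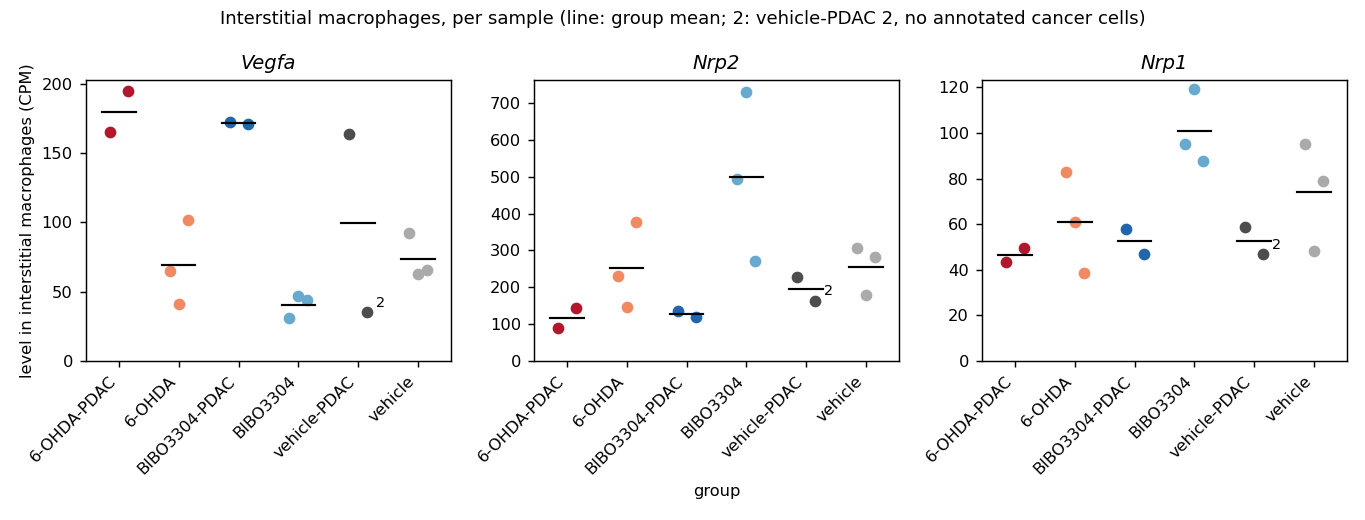
Level in CPM of Vegfa, Nrp2 and Nrp1 in interstitial macrophages, with 1 point per sample and a line at the group mean, and vehicle-PDAC 2 marked. For Vegfa the 2 samples of 6-OHDA-PDAC (165 and 195 CPM) and of BIBO3304-PDAC (171 and 173 CPM) lie above all unseeded samples, while vehicle-PDAC 2 lies at 35.0 CPM.

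Other measures moved with these changes. The summed level of the 6 interstitial macrophage markers (C1qa, C1qb, C1qc, Mrc1, Folr2 and Cx3cr1, none at 0) was 772 to 805 CPM in 6-OHDA-PDAC samples, against 1854 to 2599 CPM in 6-OHDA samples. It was 1013 to 1092 CPM in BIBO3304-PDAC samples against 3031 to 5694 CPM in BIBO3304 samples. Under vehicle it was 1761 to 1869 CPM in vehicle-PDAC samples against 2242 to 3009 CPM in vehicle samples. The cells under this name thus carried less of their own markers where seeded, and the part of this in the changes of Vegfa, Nrp2 and Nrp1 was not tested. Markers of alveolar type 1 cells, the type richest in Vegfa, summed to 15.2 to 20.6 CPM in these macrophages of 6-OHDA-PDAC samples, against 20.7 to 27.0 CPM in 6-OHDA samples. The same sum was 21.8 to 36.0 CPM in BIBO3304-PDAC samples, against 10.4 to 25.2 CPM in BIBO3304 samples. Markers of cancer cells summed to no more than 36.0 CPM in any sample. Monocyte markers summed to 407 to 435 CPM in 6-OHDA-PDAC samples against 435.5 to 534 CPM in 6-OHDA samples. They summed to 338 to 547 CPM in BIBO3304-PDAC samples against 262 to 461 CPM in BIBO3304 samples. Median transcripts per macrophage were 3107.5 and 2987 in 6-OHDA-PDAC samples, against 1879 to 2403.5 in 6-OHDA samples, and 2556 and 1714.5 in BIBO3304-PDAC samples, against 2402 to 4823 in BIBO3304 samples.

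The annotated interstitial macrophages also held a larger share of the Vegfa transcripts. They held 23.1 and 17.0% of all Vegfa transcripts in 6-OHDA-PDAC samples, against 2.54, 2.83 and 2.19% in 6-OHDA samples. They held 9.43 and 22.9% in BIBO3304-PDAC samples, against 0.735, 0.568 and 0.829% in BIBO3304 samples, and 5.89 and 2.89% in vehicle-PDAC samples, against 2.48, 4.19 and 1.60% in vehicle samples. These shares join the level per cell and the number of cells. The type made up 13% and 9.75% of cells in 6-OHDA-PDAC samples against 3.13, 4.73 and 2.22% in 6-OHDA samples, and 3.92 and 9.58% in BIBO3304-PDAC samples against 2.44, 1.57 and 2.43% in BIBO3304 samples.

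In alveolar fibroblasts, the lipid-bearing support cells of the alveolus, Nrp1 rose under 6-OHDA with seeding. It was at 363 and 434 CPM in 6-OHDA-PDAC samples, against 244, 212 and 184.5 CPM in 6-OHDA samples, with a log2 fold change of 0.95 ± 0.16 (adjusted p = 0.00998, edgeR; 1.16% of all genes of the type called). The same gene was at 339 and 395 CPM in BIBO3304-PDAC samples against 355.5, 315 and 312 CPM in BIBO3304 samples. Under vehicle it was at 454 and 340 CPM in vehicle-PDAC samples against 365, 243 and 299 CPM in vehicle samples (log2 0.56 ± 0.16, adjusted p = 0.275, edgeR), or log2 0.65 (adjusted p = 0.196, edgeR) without vehicle-PDAC 2. The call was lost without either 6-OHDA-PDAC sample.

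Vegfa fell in alveolar fibroblasts under BIBO3304 with seeding. It was at 82.8 and 107 CPM in BIBO3304-PDAC samples, against 126, 159 and 162 CPM in BIBO3304 samples (log2 -0.68 ± 0.19, adjusted p = 0.0311, edgeR; 9.95% of all genes of the type called). These are the same BIBO3304 samples that lay above vehicle. In 6-OHDA-PDAC samples it was at 108 and 107 CPM against 112, 129 and 150 CPM in 6-OHDA samples, and in vehicle-PDAC samples at 106 and 104 CPM against 103, 92.5 and 121 CPM in vehicle samples. The summed markers of alveolar fibroblasts were lower too, at 4528 to 5016 CPM in BIBO3304-PDAC samples against 6099 to 8278 CPM in BIBO3304 samples. They were at 4284 to 5351 CPM in 6-OHDA-PDAC samples against 6205 to 6906 CPM in 6-OHDA samples. Median transcripts per fibroblast were 2804 and 1630.5 in BIBO3304-PDAC samples, against 3382 to 6759 in BIBO3304 samples. They were 3084.5 and 3242.5 in 6-OHDA-PDAC samples, against 2401 to 2480 in 6-OHDA samples. The part of these markers and of depth in the results for Vegfa and Nrp1 was not tested.

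In monocytes Nrp2 rose under BIBO3304 with seeding, to 28.6 and 47.8 CPM in BIBO3304-PDAC samples against 10.9, 18.0 and 7.39 CPM in BIBO3304 samples (log2 1.81 ± 0.46, adjusted p = 0.0141, edgeR). Vegfc fell, to 24.8 and 25.8 CPM in BIBO3304-PDAC samples against 152, 106 and 47.3 CPM in BIBO3304 samples (log2 -1.63 ± 0.48, adjusted p = 0.0348, edgeR). In monocytes 9.04% of all genes tested were called. Vegfc under vehicle was at 12.99 and 11.98 CPM in vehicle-PDAC samples against 111, 16.8 and 44.96 CPM in vehicle samples, without passing (log2 -1.93 ± 0.57, adjusted p = 0.493, edgeR; -2.13, adjusted p = 0.386, without vehicle-PDAC 2). Endothelial markers in the monocytes summed to 204 to 217 CPM in BIBO3304-PDAC samples against 338 to 698 CPM in BIBO3304 samples. Monocyte markers summed to 707 to 953 CPM in BIBO3304-PDAC samples against 1223 to 1913 CPM in BIBO3304 samples. Since endothelium is the richest source of Vegfc, these values are given beside its change, and their part in it was not tested. Median transcripts per monocyte were 2027 and 1283 in BIBO3304-PDAC samples, against 2302 to 4633 in BIBO3304 samples. The part of depth in the changes of Nrp2 and Vegfc was not tested.

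The remaining calls under BIBO3304 rest on few transcripts, as does that of Nrp2 in monocytes (217 transcripts over the 15 samples). Nrp1 in B cells was at 40.6 and 40.9 CPM in BIBO3304-PDAC samples (13 and 19 transcripts), against 6.14, 9.57 and 12.7 CPM in BIBO3304 samples (2, 4 and 5 transcripts). Its log2 fold change was 2.37 ± 0.55 (adjusted p = 0.0164, edgeR), in a type with 6.72% of genes called. Vehicle-PDAC samples had 13.4 and 19.6 CPM and vehicle samples 39.7, 24.3 and 28.0 CPM, so the level in BIBO3304-PDAC samples was near that of vehicle. B cell markers summed to 581 to 850 CPM in BIBO3304-PDAC samples, against 1325 to 2135 CPM in BIBO3304 samples. Markers of alveolar type 2 cells, which carry Nrp1, summed to 394 to 641 CPM in B cells of BIBO3304-PDAC samples, against 129 to 291 CPM in those of BIBO3304 samples. Median transcripts per B cell were 1733 and 1413.5 in BIBO3304-PDAC samples, against 1883.5 to 4680 in BIBO3304 samples. The part of these markers and of depth in the result was not tested. Pgf in adventitial fibroblasts was at 13.4 and 21.3 CPM in BIBO3304-PDAC samples (12 and 13 transcripts), against 2.24, 5.92 and 4.86 CPM in BIBO3304 samples (2, 9 and 7 transcripts), with a log2 fold change of 1.95 ± 0.47 (adjusted p = 0.0414, edgeR) beside 1.36% of genes called. All other groups lay between 10.4 and 21.5 CPM for Pgf, so the BIBO3304 samples were the low ones.

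The endothelial types, which carry most of the receptor transcripts, had no called member in any comparison by edgeR or DESeq2. There were 23 endothelial member tests a comparison (19 where 6-OHDA-PDAC enters), and between 2 and 7 of them had an unadjusted p under 0.05. Lymphatic endothelium was not tested where 6-OHDA-PDAC enters, since 6-OHDA-PDAC 2 held 17 of these cells. Over the 7 comparisons, the log2 fold change of Flt1 in endothelial types lay between -0.43 and 0.35, and that of Flt4 between -0.25 and 0.27. For comparisons with 6-OHDA-PDAC, these ranges and those below leave out lymphatic endothelium, the type highest in Flt4 and Nrp2. Kdr ranged more widely, and both of its ends were in large-vessel cells, at -0.93 ± 0.37 for 6-OHDA-PDAC against 6-OHDA (adjusted p = 0.684) and 0.71 ± 0.28 for 6-OHDA against vehicle (adjusted p = 0.47, both edgeR). Nrp1 lay between -0.61 and 0.48 and Nrp2 between -0.51 and 0.64. The smallest adjusted p was 0.0936, for Kdr in general capillary cells at 133 and 132 CPM in BIBO3304-PDAC samples, against 212, 182 and 202 CPM in BIBO3304 samples (log2 -0.56 ± 0.19, edgeR). Kdr in aerocytes was at 675.5 and 584 CPM in BIBO3304-PDAC samples, against 1387, 1151 and 1054 CPM in BIBO3304 samples, also without overlap and without passing (log2 -0.78 ± 0.26, adjusted p = 0.157, edgeR). With no gene filter both were called by edgeR, Kdr in general capillary cells at -0.71 (adjusted p = 0.0451) and in aerocytes at -1.01 (adjusted p = 0.0375). Vegfc in large-vessel cells, its main source, was at 286 and 301 CPM in BIBO3304-PDAC samples, against 550, 756 and 539 CPM in BIBO3304 samples. These groups do not overlap either (log2 -0.99 ± 0.29, adjusted p = 0.195, edgeR). Flt4 in lymphatic endothelium was at 855 and 1340 CPM in BIBO3304-PDAC samples, against 1406.5, 1499 and 1173 CPM in BIBO3304 samples, which overlap. Median transcripts per general capillary cell were 1258 and 851 in BIBO3304-PDAC samples, against 1800.5 to 3497 in BIBO3304 samples. In aerocytes they were 1447.5 and 1047.5, against 1726.5 to 3381. The part of depth in these values was not tested. A p that misses the threshold with 2 or 3 samples a group does not show that endothelial levels were alike.

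The interaction asks whether a drug's effect differs between seeded and unseeded lungs. For 6-OHDA 0 of 71 member tests were called by edgeR, beside 0.00744% of all tests, with 3 at an unadjusted p under 0.05 and 0 by DESeq2. Those 3 were Vegfc in monocytes (log2 1.76 ± 0.72, adjusted p = 0.981), Kdr in large-vessel cells (log2 -1.08 ± 0.46, adjusted p = 0.869) and Nrp1 in B cells (log2 1.91 ± 0.85, adjusted p = 0.948, all edgeR). Without vehicle-PDAC 2 they were 1.97 (adjusted p = 0.742), -1.11 (adjusted p = 0.883) and 2.66 (adjusted p = 0.333, all edgeR). For BIBO3304 there was 1 of 77, beside 0.413% of all tests, which was Nrp1 in B cells (log2 2.97 ± 0.77, adjusted p = 0.0484, edgeR; 2.35% of the type's genes called). DESeq2 also called 1, but that was Nrp2 in interstitial macrophages. For Vegfa in interstitial macrophages the interaction did not pass for BIBO3304 (log2 1.59, adjusted p = 0.153) or 6-OHDA (log2 1.05, adjusted p = 0.696, both edgeR), so its rise under a drug was not shown to differ from vehicle. Without vehicle-PDAC 2 these were 1.04 (adjusted p = 0.281) and 0.52 (adjusted p = 0.892, both edgeR). Without vehicle-PDAC 1 the interaction for BIBO3304 was called for Vegfa there (2.54, adjusted p = 0.00992, edgeR). Leaving out vehicle-PDAC 2 leaves 1 vehicle-PDAC sample in the fit. The log2 interaction for BIBO3304 was then 3.71 for Nrp1 in B cells, 4.61 for Flt1 in T cells and -1.15 for Nrp2 in alveolar macrophages. Flt1 gave 89 transcripts in T cells over all 15 samples.

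Other genes of the VEGF pathway were followed in the same fits, 97 listed and 92 tested. Under seeding, 3 tests were higher and 7 lower of 895 for 6-OHDA (1.12%, beside 0.729% of all tests) and 13 higher and 25 lower of 978 for BIBO3304 (3.89%, beside 4.25% of all tests), shares near the background. Under vehicle 0 of 978 were called, and 3 of 1050 without vehicle-PDAC 2, which were Mmp14 in interstitial macrophages, Vcam1 in alveolar fibroblasts (1.22, adjusted p = 0.00773) and Ptprb in aerocytes (-2.60, adjusted p = 0.0429, all edgeR). Among VEGF receptor signalling genes, 4 tests rose and 15 fell of 435 under BIBO3304 (4.37%, beside 4.25% of all tests). Under 6-OHDA 0 rose and 3 fell of 396 (0.758%, beside 0.729% of all tests), shares near the background again. All 3 falls under 6-OHDA were in interstitial macrophages (Mapkapk2, Ptk2 and Shb). They were 3 of the 25 list genes tested in that type, where 9.22% of all genes were called. Mapkapk2, a kinase below p38, fell there by log2 values of -0.82 ± 0.23 (adjusted p = 0.0276) and -1.11 ± 0.23 (adjusted p = 0.00292, both edgeR).

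Of the VEGF-induced endothelial genes, 2 tests were higher and 3 lower of 131 under 6-OHDA (3.82%, beside 0.729% of all tests), and 8 were higher and 4 lower of 146 under BIBO3304 (8.22%, beside 4.25%). In interstitial macrophages 1 of the 9 tested genes rose and 3 fell under 6-OHDA (median log2 -0.33, 9.22% of all genes called), and 2 rose and 3 fell under BIBO3304 (median log2 -0.68, 18% called). The genes that fell were the adhesion molecule Icam1 (-1.21 under both drugs), the transcription factor Egr3 (-1.43 under both), the nuclear receptor Nr4a1 under 6-OHDA (-0.93) and the adhesion molecule Vcam1 under BIBO3304 (-2.65), with adjusted p from 0.00347 to 0.042 (edgeR). Plaur, the urokinase receptor, rose under BIBO3304 (0.89, adjusted p = 0.0124, edgeR). The other gene that rose there, under both drugs, was Mmp14, a membrane metalloprotease. Mmp14 was at 100.5 and 142 CPM in 6-OHDA-PDAC samples against 8.89, 5.39 and 14.5 CPM in 6-OHDA samples, and at 107 and 120 CPM in BIBO3304-PDAC samples against 25.2, 18.2 and 10.96 CPM in BIBO3304 samples. The log2 fold changes were 3.81 ± 0.45 (adjusted p = 5.78e-05) and 2.66 ± 0.38 (adjusted p = 0.000138, both edgeR). As for Vegfa, vehicle-PDAC 1 was high, at 61.9 CPM, and vehicle-PDAC 2 was at 11.7 CPM, against 10.0, 12.1 and 10.9 CPM in vehicle samples. That comparison gave log2 1.72 (adjusted p = 0.515) with both and 2.28 (adjusted p = 0.0109, both edgeR) without vehicle-PDAC 2. Mmp14 also rose in monocytes under both drugs (3.72 and 4.22) and, under BIBO3304, in general capillary cells (2.10, adjusted p = 0.00662) and alveolar fibroblasts (0.71, adjusted p = 0.017, both edgeR).

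Plxna4, a plexin that pairs with neuropilins as a semaphorin receptor, fell with Nrp2. In interstitial macrophages it was at 32.5 and 51.8 CPM in 6-OHDA-PDAC samples against 273, 113 and 227 CPM in 6-OHDA samples, and at 30.5 and 23.0 CPM in BIBO3304-PDAC samples against 207, 363 and 212 CPM in BIBO3304 samples. The log2 fold changes were -2.27 ± 0.36 (adjusted p = 0.00047) and -3.33 ± 0.40 (adjusted p = 3.55e-05, both edgeR). It was also called against vehicle-PDAC, at 121 and 90.5 CPM, for 6-OHDA-PDAC (-1.64, adjusted p = 0.0139) and BIBO3304-PDAC (-2.15, adjusted p = 0.0203), and in the interaction for BIBO3304 (-2.84, adjusted p = 0.0108, all edgeR). Without vehicle-PDAC 2 the calls against vehicle-PDAC were lost (-1.48, adjusted p = 0.106, and -1.99, adjusted p = 0.111), while the interaction kept its call (-2.69, adjusted p = 0.0157, all edgeR).

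Genes induced by low oxygen, a class that includes Vegfa in textbook accounts, gave few calls. Of 167 tests 1 was called under 6-OHDA, higher (0.599%, beside 0.729% of all tests), and of 177 under BIBO3304 1 was higher and 2 were lower (1.69%, beside 4.25%). All lay in interstitial macrophages, where 9.22% and 18% of all genes were called. The gene that rose in both was Ndrg1 in interstitial macrophages, at 62.7 and 92.5 CPM in 6-OHDA-PDAC samples against 41.5, 27.0 and 19.4 CPM in 6-OHDA samples, and at 56.5 and 52.0 CPM in BIBO3304-PDAC samples against 30.7, 15.6 and 12.8 CPM in BIBO3304 samples. Its log2 fold changes were 1.34 ± 0.33 (adjusted p = 0.0137) and 1.47 ± 0.37 (adjusted p = 0.00937, both edgeR). The glycolytic genes Hk2 and Pfkfb3 fell there under BIBO3304 by log2 values of -1.16 ± 0.24 (adjusted p = 0.00217) and -1.57 ± 0.39 (adjusted p = 0.00862, both edgeR). Of the hypoxia-inducible factors and their regulators 0 were called under 6-OHDA and 1 fell under BIBO3304, Arnt in interstitial macrophages (-0.73, adjusted p = 0.0455, edgeR).

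In unseeded lungs the pathway calls were few. Under 6-OHDA 2 of 978 were called (0.204%, beside 0.0669% of all tests), the protein kinase C genes Prkca (1.48 ± 0.22, adjusted p = 0.00257) and Prkcb (1.24 ± 0.26, adjusted p = 0.018, both edgeR) in dendritic cells. Both were called there for 6-OHDA-PDAC against vehicle-PDAC too (1.91 and 1.63, or 1.79 and 2.23 without vehicle-PDAC 2). In dendritic cells 43 of 5730 tests were called for 6-OHDA against vehicle. BIBO3304 samples lay above vehicle samples there too, uncalled, for Prkca (609 to 1037 against 283 to 407 CPM) and Prkcb (194 to 266 against 119 to 159.5 CPM). Dendritic cells numbered 58 to 94 in 6-OHDA samples, against 184 to 221 in vehicle samples, and the part of this was not tested. Under BIBO3304 1 rose and 3 fell of 978 (0.409%, beside 0.307% of all tests). In alveolar type 2 cells 129 of 8416 tests were called, 119 of them lower, and in alveolar fibroblasts 156 of 12626. Median transcripts per alveolar type 2 cell were 3806 to 8970 in BIBO3304 samples, against 1799 to 2097 in vehicle samples. Alveolar fibroblasts and aerocytes were deeper in BIBO3304 samples too. The part of depth in the calls that follow was not tested. Plxna2, a plexin and semaphorin receptor, rose in alveolar fibroblasts (0.74 ± 0.15, adjusted p = 0.0263), and Nr4a1 fell there (-0.66 ± 0.16, adjusted p = 0.0446, both edgeR). Mapk3 fell in alveolar type 2 cells (-1.02 ± 0.24, adjusted p = 0.0376, edgeR). Ptprb, the vascular phosphatase that restrains Kdr and Tie2, fell in aerocytes (-1.77 ± 0.35, adjusted p = 0.0181, edgeR). Vehicle samples had 115.5 to 129 CPM of Ptprb there and all other groups 20.7 to 108 CPM, so vehicle was the high group. In general capillary cells Ptprb averaged 2605 CPM. There BIBO3304 samples (2774 to 3552 CPM) overlapped with vehicle samples (2270 to 3176 CPM).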

How the data were processed

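Lung cells were barcoded with split-pool indexing and sequenced as 16 sublibraries that each hold cells of all samples, so sample, treatment, seeding state and cell type of each cell were taken from the cell table that the authors deposited. The deposited matrix holds raw transcript counts that the authors did not normalise, and for 99% of cells the matrix total equals the transcript number in that table. The submitters' processing notes name Seurat 5.3.0 and mm39, and the aligner, the counter and any cell filter were not given in the sources used here.

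Sums of counts over the cells of a type in a sample were made with pandas 2.3.3 in Python 3.11.15, leaving out sums of under 20 cells. CPM is per 1000000 transcripts of the sum. Genes were filtered with filterByExpr, scaled by TMM and tested with edgeR 4.0.16 in R 4.3.3, with all 6 groups in one fit, at least 2 samples a group, and Benjamini-Hochberg adjustment within type and comparison at 0.05. There were 7 comparisons and 2 interactions. The procedure was also run on simulated counts, drawn as independent samples with the spread estimated by the fit itself. That run could not show effects of dependent samples or of depth per cell. Tried beside the edgeR fit were no gene filter, RLE size factors, 50 cells, the compared groups alone, a replicate block, DESeq2 1.42.0, adjustment over all types, and leaving out each sample.

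All members are described. Named tests are every member called or, where none passed, the 3 with the smallest p at a mean of at least 20 CPM. From each pathway list up to 4 called tests a comparison are named by the same floor, and those given values here were picked after their values were seen, as were Flt4 in lymphatic endothelium, Kdr in aerocytes, Vegfc in large-vessel cells and genes under the floor. The members and gene lists were chosen with earlier results of these data known.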

Additional observations from a re-analysis of the deposited data

Results flagged for a closer look

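Nrp1 in B cells stood out because its drug effect differed between seeded and unseeded lungs, by the interaction term of the edgeR fit. The log2 interaction for BIBO3304 and PDAC cells was 2.97 ± 0.77, with an adjusted p of 0.0484. It rests on 13 and 19 transcripts in BIBO3304-PDAC samples, 2, 4 and 5 in BIBO3304 samples, 4 and 13 in vehicle-PDAC samples and 10, 20 and 6 in vehicle samples. The call was lost in 11 of the 15 fits that left out 1 sample, where the adjusted p ran from 0.0146 to 0.292.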

How the results depend on the processing

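Of 30 named member tests 12 were called and 18 were not. Of the 12 calls, 0 were lost with RLE size factors or a minimum of 50 cells (29 of the tests have a value), 2 with a replicate block, 2 with DESeq2, 3 with the compared groups alone, 1 with no gene filter and 6 with adjustment over all cell types. Of the other 18, 1 was gained with DESeq2 and 3 with no gene filter, and 0 of the 30 turned their direction in these fits. The number of members called for BIBO3304 against vehicle was 3 with no gene filter and 1 with DESeq2, in place of 0. It was 1 for 6-OHDA-PDAC against vehicle-PDAC with the compared groups alone, and 1 with no gene filter for both BIBO3304-PDAC against vehicle-PDAC and vehicle-PDAC against vehicle, in place of 0. It was 1 for 6-OHDA-PDAC against 6-OHDA and 6 for BIBO3304-PDAC against BIBO3304 with adjustment over all cell types, in place of 3 and 8. For the interaction of BIBO3304 it was 5 with no gene filter and 0 with adjustment over all types, the compared groups alone or the replicate block, in place of 1. Of other pathway genes 183 tests were called with no gene filter, in place of 66. The cause of these shifts was not tested.

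Leaving out each sample in turn gave 0 to 1 members for BIBO3304 against vehicle, 0 to 2 for 6-OHDA-PDAC against vehicle-PDAC, 0 to 1 for BIBO3304-PDAC against vehicle-PDAC, 0 to 3 for 6-OHDA-PDAC against 6-OHDA, 2 to 10 for BIBO3304-PDAC against BIBO3304 and 0 to 3 for the interaction of BIBO3304. Other pathway genes gave 27 (without BIBO3304-PDAC 2) to 136 (without vehicle-PDAC 2). Vegfa in interstitial macrophages lost its call under 6-OHDA in 3 of 15 fits and under BIBO3304 in 0. In BIBO3304-PDAC against BIBO3304, Pgf in adventitial fibroblasts lost it in 7, Nrp1 in B cells, Vegfa in alveolar fibroblasts and Vegfc in monocytes in 4 each, and Nrp2 in monocytes in 1, without BIBO3304-PDAC 2. Where 1 sample is left in a group, it is assumed to vary like the other groups.

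Same-numbered samples did not deviate together, with a median r of -0.04, -0.00 and 0.03 in alveolar fibroblasts, alveolar macrophages and general capillary cells, and 13, 15 and 14 of 33 pairs over 0.1. With the replicate block 2 members were called for 6-OHDA-PDAC against 6-OHDA, where Nrp2 in interstitial macrophages had an adjusted p of 0.0798, 8 for BIBO3304-PDAC against BIBO3304, and 75 tests of other pathway genes. The level of Vegfa in alveolar type 1 cells has no value at a minimum of 50 cells. Few transcripts limit Vegfb and Pgf (817 and 657 in all).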
